A study of Mus musculus with 3 samples.

Results

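In T cells taken from mouse melanomas, 9 genes of T cell costimulation were followed, all of them found by name in a table of 14811 genes. They are the tumor necrosis factor (TNF) receptors Tnfrsf4, Tnfrsf9, Tnfrsf18 and Cd27, the TNF family ligands Cd40lg, Tnfsf8 and Cd70, and the immunoglobulin family receptors Icos and Cd28. B16F10, a transplantable mouse melanoma line, was implanted under the skin, and 1 day later T cells were injected into the tail vein, either CD4+ cells carrying CD45.1 or CD8+ cells carrying CD45.2. CD45.1 and CD45.2 are variants of a leukocyte surface protein that tell the injected cells apart. On day 11 the tumors of 10 mice were pooled. The CD45.1+ cells were sorted into CD4+CD8+ and CD4+ populations and the CD45.2+ cells into CD8+CD4+ and CD8+ ones. Each population received its own hashtag, and all were run together as 1 droplet 5′ library. All groups are labelled untreated, and the strain, genotype, sex and age of the mice are not given in the sources used here.

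The deposited annotation places each of the 5564 cells in 1 of 4 classes. Cd4-identity Tdp (93 cells) and Cd8-identity Tdp (313 cells) are the double positive classes, and the Cd4 class (2477 cells) and Cd8 class (2681 cells) are the single ones. A Tdp cell has a UMI, a counted transcript molecule, of both Cd4 and Cd8a, so class and Foxp3 status rest on transcripts of the same cells, and deeper cells enter the Tdp and Foxp3-positive groups more easily. A cell was called Foxp3-positive with at least 1 UMI of Foxp3, the transcription factor of regulatory T cells, and Foxp3-zero otherwise. In the Cd4 class 555 cells were Foxp3-positive and 1922 were Foxp3-zero, and in the Cd8 class 78 were Foxp3-positive and 2603 were Foxp3-zero. Cells also carry a hashtag number from 1 to 4. The labels do not tie a number to a sorted population, so numbers served only as parts of the pool and not as replicates. Levels that do not overlap over the numbers are a description only, because the share of all measured genes without overlap is not given.

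With 1 library there were no replicates, so no test was made and no p-value is given. Levels are CPM, UMIs of the gene scaled to a total of 1000000 for the group, and because the assay reads 5′ ends, levels were compared between groups and not between genes. Intervals in brackets are exact 95% intervals for counting error only and do not cover differences between animals or cells. A gene was counted as higher or lower in a comparison when it had at least 20 UMIs over both groups and differed by at least 1.5-fold after adding 5 CPM to each level. Cells held 501 to 23946 UMIs, with a median of 3869. Median depth was 4668 UMIs in Cd4-identity Tdp, 4981 in Cd8-identity Tdp, 3478 in the Cd4 class and 4159 in the Cd8 class. A UMI of Cd3e, Cd3d or Cd3g, parts of the T cell receptor complex, was present in 98.9% of Cd4-identity Tdp, 100% of Cd8-identity Tdp, 99.3% of Cd4 class and 93.9% of Cd8 class cells. The Foxp3-positive Cd4 class cells also had higher levels of the 5 other measured regulatory T cell markers, with Il2ra at 415 CPM against 44.7 CPM and Ikzf2 at 709 CPM against 78.9 CPM in Foxp3-zero cells.

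A T cell that recognises antigen needs a second signal to divide and survive, which CD28 gives by binding B7 molecules on the antigen-presenting cell. Receptors of the TNF family such as OX40 (Tnfrsf4), 4-1BB (Tnfrsf9) and GITR (Tnfrsf18) appear after activation, recruit TRAF adaptors and signal to NF-kB, and in mice regulatory T cells carry OX40 and GITR at rest. In tumors these receptors are of interest because antibodies against them can act on effector and on regulatory T cells.

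In RefSeq's GRCm38.p6 annotation, Tnfrsf4 (chr4:156013595-156016613) and Tnfrsf18 (chr4:156026322-156028894) lie 9708 bases apart with no coding gene between them. Tnfrsf9 (chr4:150920155-150946104) and Tnfsf8 (chr4:63831202-63861508) are on the same chromosome. Cd28 (chr1:60746388-60773359) and Icos (chr1:60960773-61000322) have 1 coding gene between them, Ctla4. Cd27 lies at chr6:125232620-125237136, Cd70 at chr17:57145997-57149777 and Cd40lg at chrX:57212143-57224042. RefSeq promoter windows of 300 bases, 250 before to 50 after an annotated start, were matched for 5 of the 9 genes in 6 windows. Those of 4 genes are printed because they belong to the TNF receptors counted as higher in Foxp3-positive Cd4 class cells, with motif matches in capitals. For Tnfrsf9, which has 2 windows, the one with matches is shown. The windows are chr4:150927749-150928048 on the plus strand for Tnfrsf9, chr6:125236978-125237277 on the minus strand for Cd27, chr4:156013445-156013744 on the plus strand for Tnfrsf4 and chr4:156026072-156026371 on the plus strand for Tnfrsf18.
Tnfrsf9: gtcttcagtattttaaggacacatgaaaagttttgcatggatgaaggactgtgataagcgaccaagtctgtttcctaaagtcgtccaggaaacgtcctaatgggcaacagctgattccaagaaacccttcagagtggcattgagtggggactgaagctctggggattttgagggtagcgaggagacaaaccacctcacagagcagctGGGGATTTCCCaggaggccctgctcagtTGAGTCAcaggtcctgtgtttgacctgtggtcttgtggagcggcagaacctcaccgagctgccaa
Cd27: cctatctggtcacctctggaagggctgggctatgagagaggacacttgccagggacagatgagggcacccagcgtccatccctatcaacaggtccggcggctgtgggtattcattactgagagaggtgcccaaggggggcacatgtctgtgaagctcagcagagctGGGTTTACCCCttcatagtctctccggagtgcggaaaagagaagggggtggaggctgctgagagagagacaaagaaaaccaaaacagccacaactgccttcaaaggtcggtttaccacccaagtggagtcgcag
Tnfrsf4: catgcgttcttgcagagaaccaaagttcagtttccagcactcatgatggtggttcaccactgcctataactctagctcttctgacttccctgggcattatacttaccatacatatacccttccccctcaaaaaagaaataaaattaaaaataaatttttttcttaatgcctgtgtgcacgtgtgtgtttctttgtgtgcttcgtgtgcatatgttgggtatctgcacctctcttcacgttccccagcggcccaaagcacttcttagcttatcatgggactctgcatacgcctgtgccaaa
Tnfrsf18: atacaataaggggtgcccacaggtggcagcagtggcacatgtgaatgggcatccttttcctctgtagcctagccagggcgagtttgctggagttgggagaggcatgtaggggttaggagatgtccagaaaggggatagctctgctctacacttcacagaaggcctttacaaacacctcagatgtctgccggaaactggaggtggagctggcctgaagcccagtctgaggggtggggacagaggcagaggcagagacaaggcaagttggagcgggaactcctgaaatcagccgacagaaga

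The motifs searched on both strands were an NF-kB-like GGGNNNNNCC, an AP-1-like TGANTCA and a forkhead-like TGTTTAC. The Tnfrsf9 window held 2 overlapping NF-kB-like matches from 43 and 42 bases before the start and 1 AP-1-like match from 15 bases before it. The Cd27 window held 2 overlapping NF-kB-like matches from 84 and 83 bases before the start. No match was found in the Tnfrsf4, Tnfrsf18 and Tnfsf8 windows or in the other Tnfrsf9 window. Of all 32851 windows of this length, 50.79% held the NF-kB-like letters, 7.808% the AP-1-like letters and 3.65% the forkhead-like letters. A match is a description of letters and not a binding site.

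**Figure D1:**
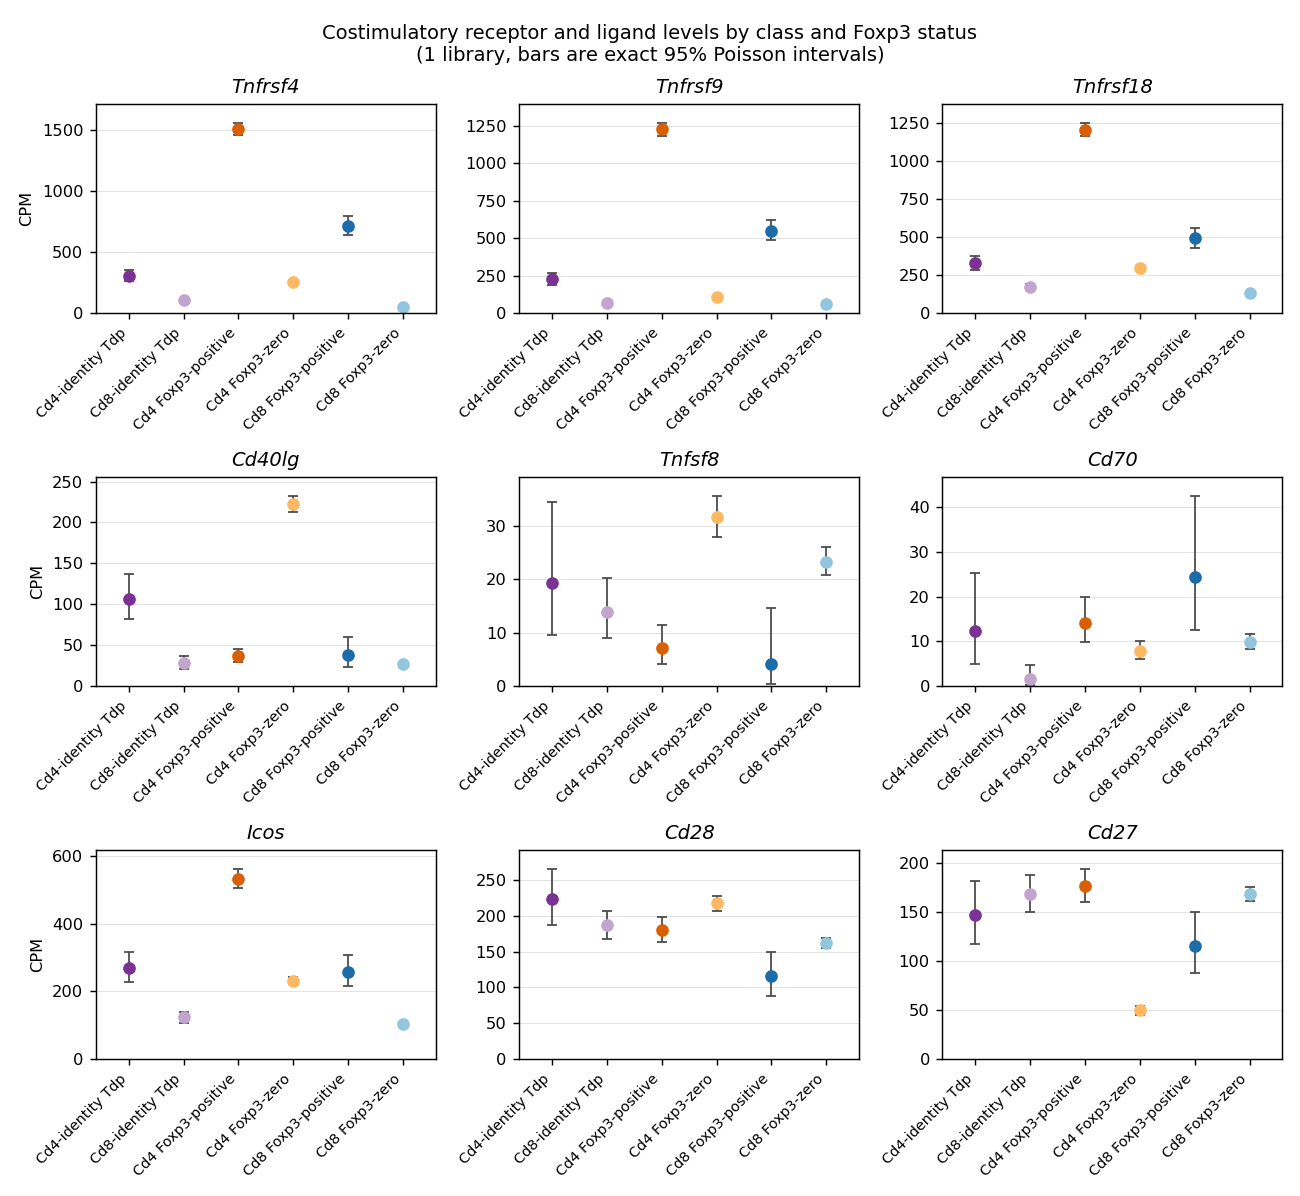
Level of each of the 9 genes (CPM, vertical axes from 0, a separate scale for each gene) in 6 groups of cells, with bars for exact 95% Poisson intervals. Tnfrsf4, Tnfrsf9, Tnfrsf18 and Icos stand highest in Foxp3-positive Cd4 class cells, at 1510, 1226, 1206 and 532 CPM, and Cd40lg stands highest in Foxp3-zero Cd4 class cells, at 222 CPM.

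Of the 6 comparisons made, the one between Foxp3-positive and Foxp3-zero cells of the Cd4 class had the most of these genes past the fold. Tnfrsf4, Tnfrsf9, Tnfrsf18, Icos and Cd27 were higher in Foxp3-positive cells, Cd40lg and Tnfsf8 were lower, and Cd70 and Cd28 were not past the fold. Thus 7 of 9 genes were counted, against a background of 12.7% of 10529 measured genes, of which 7.16% were higher and 5.57% lower. The median log2 ratio of the 9 genes was 1.19, and that of all measured genes was -0.01. The 9 genes were chosen with earlier results of these data known. Counts of them beside a background, here and below, are therefore descriptions and not a test of the set.

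Tnfrsf4, which encodes OX40, had 1510 CPM [1461 to 1560] in Foxp3-positive Cd4 class cells and 257 CPM [247 to 269] in Foxp3-zero ones. By hashtag numbers 1 to 4 its level was 1640, 1370, 1380 and 1315 CPM in Foxp3-positive cells, against 294, 203, 229 and 256 CPM in Foxp3-zero cells. All 4 Foxp3-positive levels lay above all 4 Foxp3-zero ones, and the fold was 5.86 [5.56 to 6.19]. A UMI was seen in 89.4% of Foxp3-positive cells and 35.6% of Foxp3-zero cells, or 80.2% and 24.9% when each cell was thinned to 2000 UMIs.

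Tnfrsf9, which encodes 4-1BB (CD137), a receptor of recently activated T cells, gave the widest gap of the 9 genes. Its level was 1244, 1171, 1332 and 1195 CPM over the 4 numbers in Foxp3-positive cells, against 113, 78.8, 118 and 139 CPM in Foxp3-zero cells. Summed over the numbers it had 1226 CPM [1182 to 1271] in Foxp3-positive cells and 108 CPM [101 to 115] in Foxp3-zero cells, an 11.4-fold difference [10.6 to 12.3]. In thinned cells a UMI was seen in 63.8% of Foxp3-positive and 8.08% of Foxp3-zero cells.

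Tnfrsf18, which encodes GITR, was already frequent in Foxp3-zero cells and reached nearly all Foxp3-positive ones. Its level was 1207, 1177, 1404 and 1159 CPM over the 4 numbers in Foxp3-positive cells, against 317, 245, 355 and 314 CPM in Foxp3-zero cells. The fold was 4.03 [3.82 to 4.26], and a UMI was seen in 92.6% of Foxp3-positive and 55.7% of Foxp3-zero cells. The groups did not overlap over the numbers.

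Cd27, the receptor of CD70, had 177 CPM [160 to 195] in Foxp3-positive cells and 49.6 CPM [44.9 to 54.7] in Foxp3-zero cells. Over the 4 numbers it had 159, 174, 247 and 211 CPM in Foxp3-positive cells, against 48.3, 55.0, 61.3 and 38.3 CPM in Foxp3-zero cells. The fold was 3.57 [3.11 to 4.09], with no overlap between the groups.

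Icos, a relative of CD28 that regulatory and follicular helper T cells use, had 493, 600, 476 and 596 CPM over the 4 numbers in Foxp3-positive cells, against 238, 223, 289 and 195 CPM in Foxp3-zero cells. Its fold was 2.30 [2.14 to 2.47] and ranged from 1.65 in number 3 to 3.06 in number 4. Cd28, the founding costimulatory receptor, differed little, with 180 CPM [164 to 198] in Foxp3-positive cells and 217 CPM [207 to 227] in Foxp3-zero cells, a level 1.20-fold lower [1.08 to 1.34]. Its ratio changed sign between numbers, at 0.759-fold in number 1 and 1.11-fold in number 4.

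Of the 3 ligands, 2 were lower in Foxp3-positive cells and 1 was not past the fold. Cd40lg, the helper signal of CD4 T cells to B cells and dendritic cells, had 36.3 CPM [29.1 to 44.8] in Foxp3-positive cells and 222 CPM [212 to 233] in Foxp3-zero cells. Over the 4 numbers it had 37.3, 35.6, 42.2 and 31.3 CPM in Foxp3-positive cells, against 227, 214, 231 and 218 CPM in Foxp3-zero cells. The level was 6.13-fold lower [4.94 to 7.69], and a UMI was seen in 11.2% of Foxp3-positive and 52.7% of Foxp3-zero cells. Tnfsf8, the ligand of CD30, had 17 UMIs in Foxp3-positive and 262 UMIs in Foxp3-zero cells and was 4.45-fold lower [2.72 to 7.75]. Cd70, the ligand of CD27, was rare in both, with 34 UMIs in Foxp3-positive and 66 UMIs in Foxp3-zero cells. Its fold of 1.79 [1.14 to 2.74] was not past the rule after the added 5 CPM.

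Foxp3-positive cells held 22.4% of all UMIs of the Cd4 class. They held 76.7% of its Tnfrsf9 UMIs, 62.9% of Tnfrsf4, 53.8% of Tnfrsf18, 50.7% of Cd27 and 39.9% of Icos. They held 4.5% of the Cd40lg UMIs and 6.09% of the Tnfsf8 UMIs.

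**Figure D2:**
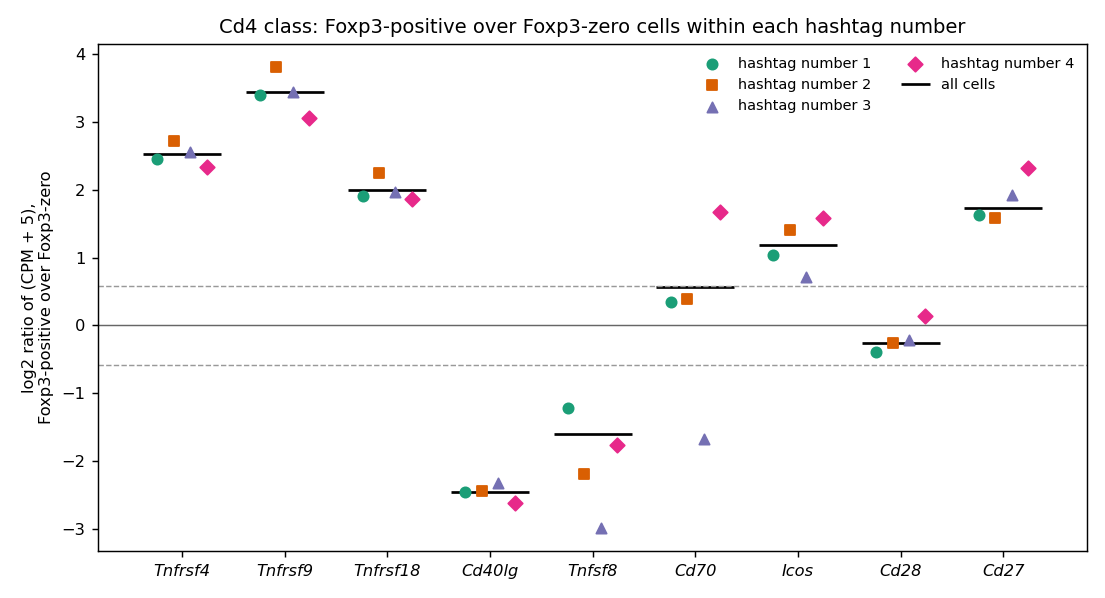
Log2 ratio of Foxp3-positive over Foxp3-zero Cd4 class cells (vertical axis) for the 9 genes, 1 point per hashtag number, with dashed lines at 1.5-fold. For Tnfrsf4, Tnfrsf9, Tnfrsf18, Icos and Cd27 the 4 points are above the upper line, for Cd40lg and Tnfsf8 the 4 points are below the lower line, and the points of Cd70 and Cd28 lie on both sides of 0.

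For the genes that differed with Foxp3 status, the largest step was between no Foxp3 UMI and 1 Foxp3 UMI. With 0, 1, 2 and 3 or more Foxp3 UMIs (1922, 150, 117 and 288 cells), Tnfrsf4 had 257, 1407, 1314 and 1612 CPM. Tnfrsf9 had 108, 1076, 1121 and 1319 CPM along the same series. Cd40lg had 222, 53.8, 25.2 and 32.8 CPM, so its level was again lower with 2 Foxp3 UMIs than with 1. Icos had 231, 506, 515 and 548 CPM. Cd27 had 49.6, 197, 165 and 173 CPM, its highest value being in cells with 1 Foxp3 UMI. Cd28 had 217, 185, 174 and 181 CPM.

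**Figure D3:**
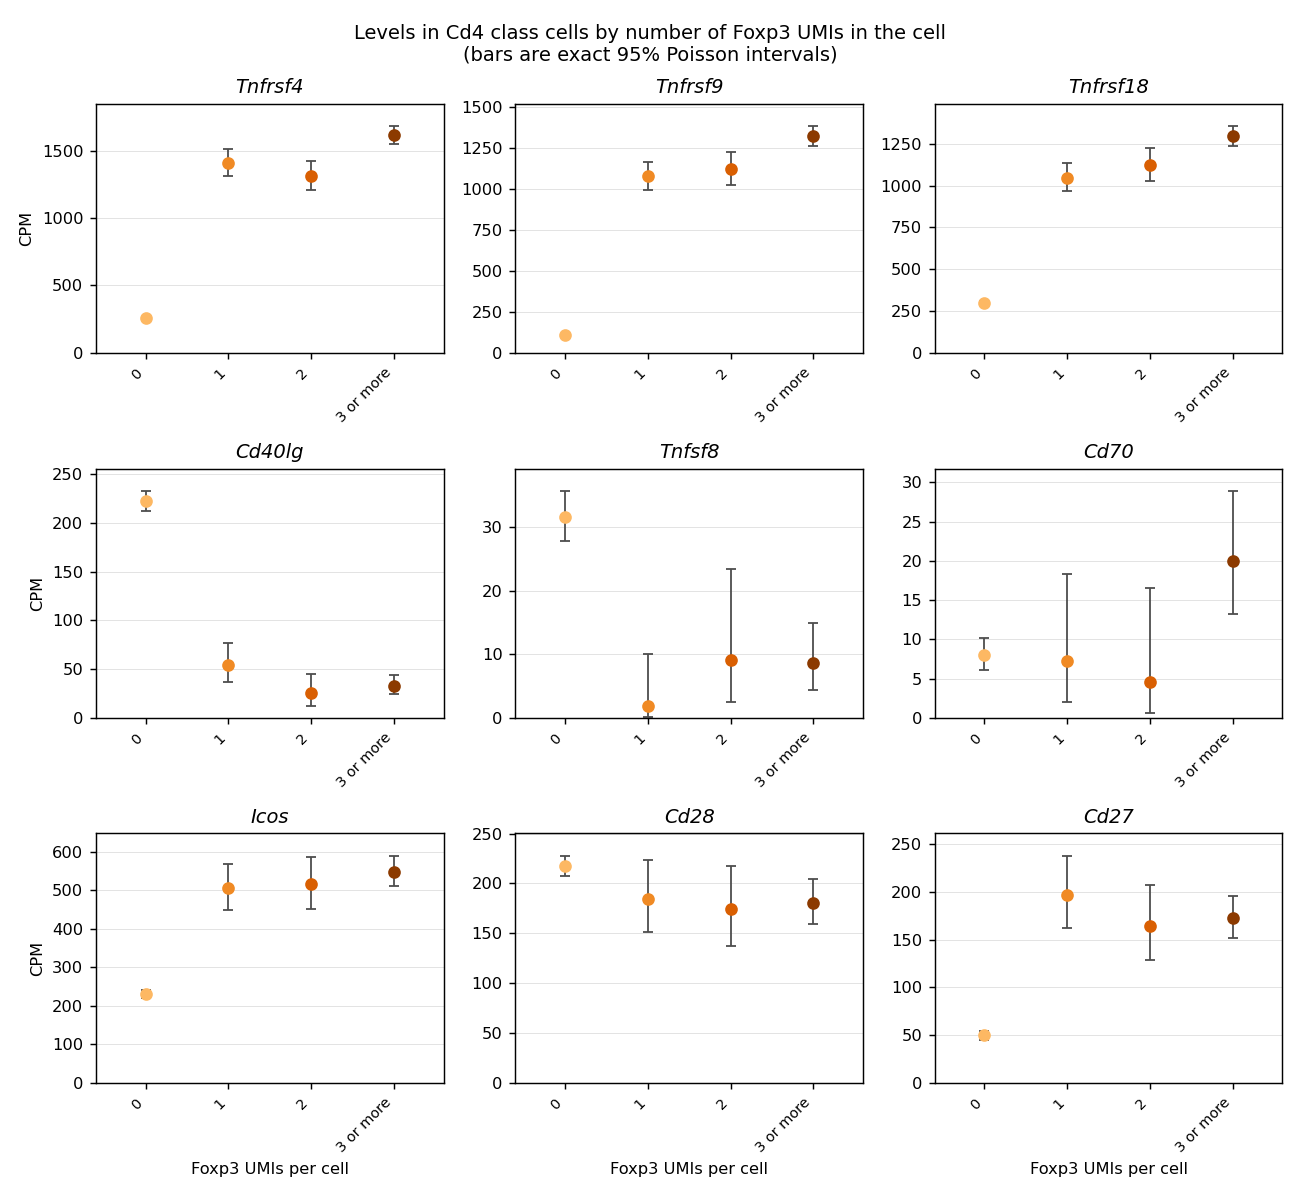
Level (CPM) of the 9 genes in Cd4 class cells with 0, 1, 2 and 3 or more Foxp3 UMIs, with exact 95% Poisson intervals. Tnfrsf9 goes through 108, 1076, 1121 and 1319 CPM, so the main step lies between 0 and 1 Foxp3 UMI.

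Foxp3-zero does not mean that a cell lacks Foxp3, because transcripts can be missed, so the Foxp3-zero Cd4 class cells were split by a UMI of Il2ra or Ikzf2, genes that regulatory T cells carry. The 441 cells with such a UMI had 487 CPM of Tnfrsf4 and 272 CPM of Tnfrsf9, against 167 CPM and 42.7 CPM in the 1481 cells without. Tnfrsf18 had 438 CPM with and 244 CPM without, while Cd40lg had 143 CPM with and 254 CPM without. Icos and Cd28 differed less, with 259 CPM and 204 CPM in cells with such a UMI, against 220 CPM and 222 CPM in cells without. Set against the cells without Il2ra or Ikzf2 UMIs alone, the log2 ratios of Foxp3-positive cells were 3.14 for Tnfrsf4 and 4.69 for Tnfrsf9. Il2ra was the gene most like Tnfrsf9 over groups (Pearson r = 0.978), so a larger Tnfrsf9 ratio is partly built into this reference. Median depth was 3888 UMIs in cells with such a UMI and 3458 in those without, and 31.3% and 23.1% were cycling. Whether the cells with such a UMI had missed Foxp3 transcripts was not tested.

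Markers of other cell types also moved with Foxp3 status. At least 2 UMIs of another cell type's marker list were present in 52.8% of Foxp3-positive and 16.9% of Foxp3-zero Cd4 class cells. The summed B cell list, of which 2 of 5 genes are in the table and neither is at 0, had 438 CPM in Foxp3-positive and 121 CPM in Foxp3-zero cells. Its gene Cd79b had 35.5 CPM against 10.0 CPM, so most of the list's level came from its other gene. In Foxp3-positive cells a UMI of the B cell list was present in 69.7%. The share was 10.6% for the macrophage list, 6.85% for the NK cell list and 5.23% for the dendritic cell list. The macrophage list, with 9 of 9 genes in the table and none at 0, had 573 CPM in Foxp3-positive and 412 CPM in Foxp3-zero cells. The dendritic cell list, with 7 of 7 genes in the table and none at 0, had 79.7 CPM in Foxp3-positive and 22.6 CPM in Foxp3-zero cells, and the 3 of its genes that were measured were higher, among them Cd209a at 51.8 CPM against 13.2 CPM. The NK cell list, with Klra4 at 0 in Foxp3-positive cells, had 208 CPM in Foxp3-positive and 127 CPM in Foxp3-zero cells. Without the cells with other markers the 7 genes stayed past the fold in the same direction, with log2 ratios of 2.33 for Tnfrsf18, 1.40 for Icos and -2.09 for Cd40lg. In 75 cells with at least 10 macrophage marker UMIs and no CD3 UMI, which have a median of 6619 UMIs, the 9 genes had between 0 and 13.7 CPM and a UMI in at most 8% of the cells. The shares in Foxp3-positive cells, at a median of 3345 UMIs, were above this for 7 of the 9 genes, while Tnfsf8 (1.80% against 4%) was at background, and Cd70 was seen in 3.24% against 0 of 75 cells, which allows up to 4%. Fewer Foxp3-positive cells were cycling, 18.9% against 25.0% of Foxp3-zero cells. Among Foxp3-positive cells, cycling ones had 1092 CPM of Tnfrsf4 and 695 CPM of Tnfrsf9, against 1717 CPM and 1489 CPM in those not cycling. Without cycling cells the 7 genes again kept their direction past the fold.

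Beyond the 9 genes, TNF receptors leaned toward Foxp3-positive cells. Of 19 other TNF receptors 14 were measured, of which 6 were higher and 0 lower, and their median log2 ratio was 0.29. Of all 10529 measured genes 7.16% were higher and 5.57% lower in this comparison. Tnfrsf8, the CD30 receptor of Tnfsf8, had 10.9 CPM in Foxp3-positive and 0.723 CPM in Foxp3-zero cells, a 15.0-fold difference [6.04 to 44.6] on 26 and 6 UMIs. Tnfrsf1b, the TNF receptor TNFR2, had 112 CPM in Foxp3-positive and 43.7 CPM in Foxp3-zero cells, and Fas, the death receptor, had 51.3 CPM against 28.5 CPM. Tnfrsf13b, Cd40 and Tnfrsf10b were the other 3, Cd40 on 25 and 33 UMIs and Tnfrsf10b on 18 and 24 UMIs. Tnfrsf1a, the death-domain TNF receptor, had 38.8 CPM in Foxp3-positive and 42.0 CPM in Foxp3-zero cells.

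Other TNF ligands did not lean that way. Of 11 measured of 14, 1 was higher and 3 were lower, with a median log2 ratio of -0.28. The background was 7.16% of all measured genes higher and 5.57% lower. Ltb, a lymphotoxin subunit, had 2036 CPM in Foxp3-positive and 1176 CPM in Foxp3-zero cells. Fasl, the ligand of Fas, was 3.44-fold lower with 15.9 CPM in Foxp3-positive and 54.6 CPM in Foxp3-zero cells, and Tnfsf14 (LIGHT) was 4.77-fold lower. Tnfsf13b had 0 UMIs in Foxp3-positive cells, and with 3 counts set as its floor it was not past the rule, which leaves 2 lower.

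In the TRAF and NF-kB list, all 29 genes were measured, 12 were higher and 1 was lower, with a median log2 ratio of 0.35. The background was again 7.16% of all measured genes higher and 5.57% lower. Nfkbia, the inhibitor that NF-kB itself induces, had 1081 CPM in Foxp3-positive and 395 CPM in Foxp3-zero cells. Nfkb2, a subunit of the alternative NF-kB pathway, had 130 CPM against 53.4 CPM in Foxp3-zero cells, and Bcl3, a nuclear partner of NF-kB, had 219 CPM against 84.4 CPM. Traf1, an adaptor of 4-1BB and other receptors, had 387 CPM in Foxp3-positive and 177 CPM in Foxp3-zero cells. The 1 lower gene was Bcl2a1d, a survival gene with near-identical copies between which reads may be split, with 33.8 CPM in Foxp3-positive and 61.9 CPM in Foxp3-zero cells. Rela, the main activating subunit, had 65.9 CPM against 68.4 CPM.

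Among 12 measured of 16 genes of the CD28 and B7 families 5 were higher and 2 lower, against 7.16% and 5.57% of all measured genes. Ctla4, the inhibitory rival of CD28, had 551 CPM in Foxp3-positive and 101 CPM in Foxp3-zero cells, and Cd80, a B7 ligand, had 30.9 CPM against 6.74 CPM. Tigit, an inhibitory receptor, had 332 CPM in Foxp3-positive and 129 CPM in Foxp3-zero cells. Cd226, the activating receptor for the same ligands as TIGIT, was 2.51-fold lower, with 53.0 CPM against 133 CPM, and Cd96 was 2.83-fold lower. Of 17 measured signaling genes downstream of CD28 and ICOS, 1 was higher (Tec) and 1 lower (Themis, 27.1 CPM in Foxp3-positive and 122 CPM in Foxp3-zero cells). Their median log2 ratio was -0.06, and the shares of signaling genes higher and lower were near those of all measured genes.

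The Cd4 class as a whole was also set against the Cd8 class, as the reference for the double positive cells. Tnfrsf4, Tnfrsf9, Tnfrsf18, Cd40lg and Icos were higher in the Cd4 class and Cd27 was lower, so 6 of 9 genes were counted, against a background of 6.85% of 11643 measured genes, with 3.17% higher and 3.68% lower. Tnfrsf4 had 538 CPM in the Cd4 class and 79.0 CPM in the Cd8 class, and Tnfrsf9 had 358 CPM against 77.3 CPM. Cd40lg had 181, 181, 192 and 175 CPM over the 4 numbers in the Cd4 class, against 43.7, 29.3, 18.5 and 27.2 CPM in the Cd8 class, a fold of 6.59 [5.89 to 7.38]. Icos was 2.77-fold [2.60 to 2.95] and Tnfrsf18 3.40-fold [3.23 to 3.58] higher. Cd27 was 2.14-fold lower [1.97 to 2.31], with 75.5, 77.0, 99.7 and 78.2 CPM over the 4 numbers in the Cd4 class, against 128, 171, 183 and 163 CPM in the Cd8 class. The levels of Cd40lg and Cd27 did not overlap between the classes. Cd28 had 209 CPM in the Cd4 class and 161 CPM in the Cd8 class, and Tnfsf8 (26.1 CPM against 22.6 CPM) and Cd70 (9.35 CPM against 10.4 CPM) had intervals of the ratio that include 1.

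Markers of other cell types were lower in the Cd4 class, with 8 of 9 macrophage, 5 of 5 NK cell and 4 of 7 dendritic cell markers counted as lower and none of these lists at 0 for any gene. Of all measured genes 3.68% were lower. Summed levels in the Cd4 class and the Cd8 class were 448 against 965 CPM for the macrophage list, 145 against 365 CPM for the NK cell list and 35.4 against 128 CPM for the dendritic cell list. Without the cells with other markers the 6 genes stayed past the fold in the same direction, with log2 ratios of 2.27 for Tnfrsf4, 1.84 for Tnfrsf9 and -1.49 for Cd27.

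Leaving out every cell with a Foxp3 UMI took most from Tnfrsf9, whose log2 ratio of the Cd4 class over the Cd8 class was 0.81 without and 2.14 with these cells. The log2 ratio of Tnfrsf4 was 2.13 without them, that of Tnfrsf18 1.12, that of Icos 1.14, that of Cd40lg 2.83 and that of Cd27 -1.67. All 6 remained past the fold in the same direction.

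In the Cd8 class a few cells held most of the Tnfrsf4 and Cd70 transcripts. The 27 cells with the most UMIs of the gene, 1% of the class, held 64.8% of its Tnfrsf4 UMIs and 91.4% of its Cd70 UMIs. The same share of cells held 39.5% of Tnfrsf9, 28.6% of Cd40lg, 15.6% of Tnfrsf18, 11.2% of Icos, 7.09% of Cd27 and 6.39% of Cd28. All 27 highest Tnfrsf4 cells had a CD3 UMI, 11 had a Foxp3 UMI and 8 had a Cd8a or Cd8b1 UMI. Of the 27 highest Cd70 cells, 4 had a Foxp3 UMI and 17 a Cd8a or Cd8b1 UMI. Tnfrsf4 in the Cd8 class also differed between numbers, with 221 CPM in number 1 and 61.7, 27.7 and 80.4 CPM in numbers 2, 3 and 4.

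Foxp3-positive cells of the Cd8 class, 78 in all, had higher Tnfrsf4, Tnfrsf9, Tnfrsf18, Icos and Cd70 and lower Tnfsf8 than Foxp3-zero ones, over a broad background. Of 9 genes 6 were counted, 5 higher and 1 lower, against 23.5% of 10894 measured genes (12.9% higher and 10.5% lower). Tnfrsf4 had 716 CPM [643 to 795] in Foxp3-positive and 54.9 CPM [51.0 to 59.1] in Foxp3-zero Cd8 class cells, a fold of 13.0 [11.4 to 14.8]. In the 2 numbers with at least 20 Foxp3-positive cells it had 529 and 557 CPM in Foxp3-positive cells, against 194 and 44.9 CPM in Foxp3-zero cells, so the fold ran from 2.72 to 12.4. Tnfrsf9 was 9.29-fold [8.06 to 10.7], Tnfrsf18 3.64-fold [3.17 to 4.17] and Icos 2.52-fold [2.08 to 3.03] higher. Cd70 was 2.48-fold [1.25 to 4.48] higher on 12 and 128 UMIs, but its fold was 0.281 in number 1 and 1.72 in number 2, and its log2 ratio was -0.39 without cells with UMIs of 2 receptor beta V genes. Tnfsf8 was 5.73-fold lower [1.57 to 47.6] on 2 and 303 UMIs. Cd27 was not past the rule and lay on the other side of 1 from the Cd4 class, with 116 CPM in Foxp3-positive and 169 CPM in Foxp3-zero Cd8 class cells. That difference between the classes was not tested. Cd40lg had 38.5 CPM in Foxp3-positive and 27.0 CPM in Foxp3-zero cells, not past the rule. In numbers 1 and 2 its ratio had the other sign, with 23.8 and 7.73 CPM in Foxp3-positive cells on 4 and 1 UMIs, against 45.4 and 30.1 CPM in Foxp3-zero cells, and the sign changed under 3 of 20 alternatives.

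The 78 cells were mixed by their markers. In 39 of them no UMI of Cd8a or Cd8b1 was seen, and these 39 had 3268 CPM of the macrophage list and 904 CPM of the dendritic list, against 475 CPM and 0 CPM in the 39 cells with a Cd8a or Cd8b1 UMI. The T cell list had 2788 CPM in Foxp3-positive and 4257 CPM in Foxp3-zero Cd8 class cells, at median depths of 5268.5 and 4147 UMIs. As an alternative, cells with no Cd8a or Cd8b1 UMI were left out of both groups. That also changes the Foxp3-zero reference, so it does not measure the part of the 39 cells alone. Tnfrsf4 then had a log2 ratio of 4.38, against 3.59 with all cells, Cd40lg -0.89 and Cd70 2.41. Without cells with markers of other cell types, by contrast, the log2 ratio of Cd40lg was 1.54. Cd40lg was past the fold as higher under 6 of 20 alternatives, so its direction in this comparison is not settled. Scaling by trimmed means (TMM) shifted all log2 ratios of this comparison by -0.12, more than in the other comparisons.

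**Figure D4:**
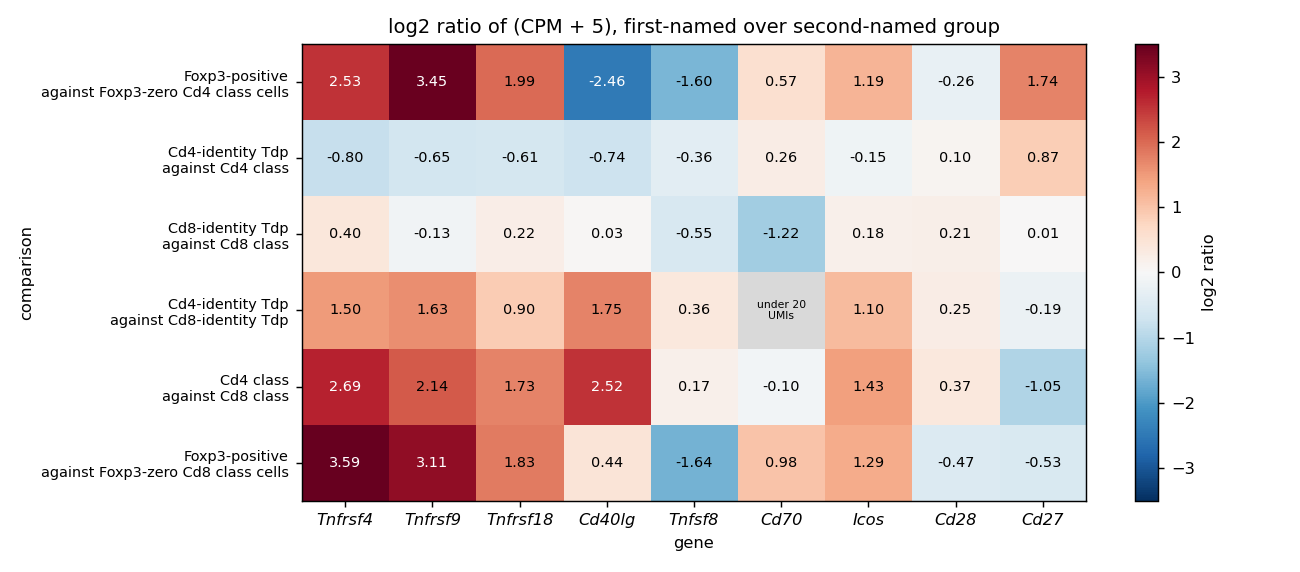
Log2 ratios of the 9 genes (across the page) in 6 comparisons (down), coloured from lower to higher in the group named first, with the value in each cell. Tnfrsf9 ranges from 3.45 in Foxp3-positive against Foxp3-zero Cd4 class cells to -0.65 in Cd4-identity Tdp against the Cd4 class.

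The double positive cells were set against the single class of their own identity. Cd4-identity Tdp cells had lower Tnfrsf4, Tnfrsf9, Tnfrsf18 and Cd40lg than the Cd4 class and higher Cd27. These are 5 of 9 genes, against a background of 13.4% of 10602 measured genes, with 3.89% higher and 9.54% lower. Tnfrsf4 had 308 CPM [264 to 356] in Cd4-identity Tdp cells and 538 CPM in the Cd4 class, 1.75-fold lower [1.51 to 2.04]. In the 3 numbers with at least 20 cells (1, 2 and 4) it had 240, 228 and 477 CPM in Cd4-identity Tdp cells, against 624, 419 and 501 CPM in the Cd4 class, so the groups overlapped. Tnfrsf9 was 1.58-fold lower [1.32 to 1.89] and Tnfrsf18 1.54-fold lower [1.33 to 1.79].

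Cd40lg and Cd27 were past the fold under 17 and 18 of 18 alternatives. Cd40lg had 101, 107 and 101 CPM in numbers 1, 2 and 4 in Cd4-identity Tdp cells, against 181, 181 and 175 CPM in the Cd4 class, and was 1.70-fold lower [1.31 to 2.23]. Cd27 had 124, 186 and 152 CPM in Cd4-identity Tdp cells, against 75.5, 77.0 and 78.2 CPM in the Cd4 class, and was 1.88-fold higher [1.48 to 2.35]. Neither gene overlapped between the groups. Icos had 269 CPM [228 to 315] in Cd4-identity Tdp cells and 299 CPM in the Cd4 class, and Cd28 had 224 CPM [187 to 266] against 209 CPM, and the intervals of both ratios include 1.

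When the Cd4 class was standardised to the hashtag numbers and depths of the Tdp cells, 1 of the 5 genes stayed past the fold, Cd27. Foxp3 cells and doublet signs moved with these values. Without cells with a Foxp3 UMI the log2 ratio of Tnfrsf9 turned to 0.21, that of Tnfrsf4 was -0.44 and that of Tnfrsf18 -0.33, none past the fold, while Cd40lg (-0.91) and Cd27 (1.12) stayed past it. At least 2 UMIs of each of 2 T cell receptor beta V genes, a sign of 2 cells in a droplet, were present in 38.7% of Cd4-identity Tdp and 9.29% of Cd4 class cells. Without such cells Tnfrsf9 had a log2 ratio of -1.21 and Cd40lg -1.36. Cycling cells were 47.3% of Cd4-identity Tdp and 23.6% of Cd4 class cells, and without them Tnfrsf4 had a log2 ratio of -1.18. The macrophage list had 57.7 CPM in Cd4-identity Tdp cells, where Csf1r, C1qb, Cd14 and Ms4a7 were at 0, and 448 CPM in the Cd4 class. Of all measured genes 3.89% were higher and 9.54% lower in this comparison. Of the pathway lists, the TNF ligands had the most genes past the fold, 2 higher and 4 lower of 11 measured, or 3 lower with the floor of 3 counts. Tnf itself had 33.2 CPM in Cd4-identity Tdp and 58.3 CPM in the Cd4 class, Lta, the lymphotoxin alpha subunit, had 24.5 CPM against 61.3 CPM, and Tnfsf11, the RANK ligand, had 19.2 CPM against 37.4 CPM. Tnfsf14 and Tnfsf13b were the higher ones, on 17 and 4 UMIs in Cd4-identity Tdp cells. The CD28 and B7 families had 1 gene higher and 1 lower of 12 measured, too few to tell apart from that background. The higher one was Pdcd1, the inhibitory receptor PD-1, with 217 CPM in Cd4-identity Tdp and 118 CPM in the Cd4 class. In the TRAF and NF-kB list 0 of 29 genes were higher and 2 lower, which is not above the background. The 2 were Nfkbia, with 341 CPM in Cd4-identity Tdp against 548 CPM, and Traf6. In the TNF receptor list 1 of 14 was higher and 3 were lower, the 3 being at 0 UMIs in Cd4-identity Tdp cells and not past the rule at the floor of 3 counts.

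Cd8-identity Tdp cells differed little from the Cd8 class in these genes. Of the 9, 1 was past the fold, Cd70, which was lower on 3 against 140 UMIs, 6.49-fold [2.18 to 31.8], and was not past the rule with 20 CPM added, against a background of 4.97% of 11040 measured genes, with 1.13% higher and 3.84% lower. Tnfrsf4 had 106 CPM in Cd8-identity Tdp and 79.0 CPM in the Cd8 class, but 4 of the 313 Tdp cells held 64.3% of its 199 UMIs, and 1 of them held 75. Tnfrsf18 had 173 CPM [155 to 193] against 148 CPM, Icos had 123 CPM [107 to 140] against 108 CPM and Cd28 had 187 CPM [168 to 207] against 161 CPM in the Cd8 class. Tnfsf8 was 1.63-fold lower [1.09 to 2.54], lower in 4 of 4 numbers but not past the rule. Cd27 had 169 CPM in Cd8-identity Tdp and 167 CPM in the Cd8 class, with a fold of 1.01 [0.895 to 1.14]. The same doublet sign was present in 19.2% of Cd8-identity Tdp and 12.8% of Cd8 class cells, and 52.1% and 32.7% of the cells were cycling. The macrophage list had 329 CPM in Cd8-identity Tdp and 965 CPM in the Cd8 class, and the NK cell list 183 CPM against 365 CPM. Without the cells with other markers 3 of the 9 genes were past the fold, all of them lower. These were Tnfrsf9 (log2 ratio -0.74), Tnfsf8 (-0.71) and Cd70. The log2 ratio of Tnfrsf4 was then -0.48, not past the fold, against 0.40 with all cells.

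Set against each other, the Tdp classes differed in Tnfrsf4, Tnfrsf9, Tnfrsf18, Cd40lg and Icos. Thus of 8 measured genes 5 were higher in Cd4-identity Tdp than in Cd8-identity Tdp cells and 0 were lower, against a background of 13.8% of 8121 genes (5.26% higher and 8.52% lower). Cd40lg had 101, 107 and 101 CPM in numbers 1, 2 and 4 in Cd4-identity Tdp cells, against 24.3, 18.05 and 25.1 CPM in Cd8-identity Tdp cells, a fold of 3.78 [2.57 to 5.57]. Icos had 256, 228 and 354 CPM against 121, 146 and 95.7 CPM in Cd8-identity Tdp cells, a fold of 2.19 [1.77 to 2.70]. Neither gene overlapped between the groups. Tnfrsf18 was 1.88-fold [1.57 to 2.26] higher. Tnfrsf9 was 3.24-fold [2.52 to 4.15] higher in all, with folds of 1.34, 2.13 and 5.64 in numbers 1, 2 and 4, and without cells with UMIs of 2 receptor beta V genes its log2 ratio was 0.90, against 1.63 with all cells. Tnfrsf4 was 2.91-fold [2.36 to 3.58] higher in all, but its fold was 0.736 in number 1, 2.97 in number 2 and 6.60 in number 4, and without cycling cells its log2 ratio was 0.42, not past the fold. Cd27, with 147 CPM in Cd4-identity Tdp and 169 CPM in Cd8-identity Tdp, gave a fold of 0.871 [0.676 to 1.11], so the gap between the single classes was not detectable here. Cd70 had 7 and 3 UMIs and was not measured.

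The few Foxp3-positive Tdp cells, 18 of Cd4 identity and 14 of Cd8 identity, had higher Tnfrsf4 and Tnfrsf9 than Foxp3-zero ones, on few cells. Tnfrsf4 had 734 CPM in Foxp3-positive and 188 CPM in Foxp3-zero Cd4-identity Tdp cells, and 312 CPM in Foxp3-positive and 88.3 CPM in Foxp3-zero Cd8-identity Tdp cells. Tnfrsf9 had 590 CPM and 125 CPM in the same groups of Cd4 identity, and 387 CPM and 43.3 CPM in those of Cd8 identity. Cd40lg had 71.8 CPM in Foxp3-positive and 116 CPM in Foxp3-zero Cd4-identity Tdp cells. Doublet signs and other markers moved with this split, and their part in it was not tested. In Cd4-identity Tdp, UMIs of 2 receptor beta V genes were present in 55.6% of Foxp3-positive and 34.7% of Foxp3-zero cells, and other markers in 66.7% and 30.7%, while the macrophage, dendritic cell and NK cell lists were at 0 in the Foxp3-positive cells. The B cell list had a UMI in 83.3% of Foxp3-positive and 56% of Foxp3-zero cells, at 343 CPM and 161 CPM. In Cd8-identity Tdp the shares were 42.9% of Foxp3-positive and 18.1% of Foxp3-zero cells for the receptor genes and 92.9% and 29.4% for other markers, and the macrophage list had 2166 CPM, with Adgre1, C1qa, C1qb, C1qc and Ms4a7 at 0, against 173 CPM. A macrophage list UMI was present in 21.4% of these Foxp3-positive and 5.69% of the Foxp3-zero cells. For the B cell list the shares were 100% and 46.2%, at 367 CPM and 162 CPM. Median depth was 9908.5 UMIs in Foxp3-positive and 4904 UMIs in Foxp3-zero Cd8-identity Tdp cells.

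Ordered by level, the 6 plotted groups fell into different sequences for different genes. The Tdp groups were not split by Foxp3 status here, while the class groups were, so the order sets unlike groups side by side. Foxp3-positive cells held 21.9% of all UMIs of Cd4-identity Tdp. They held 52.3% of its Tnfrsf4, 56.9% of its Tnfrsf9, 39.3% of its Cd27 and 14.8% of its Cd40lg UMIs. Tnfrsf4 and Tnfrsf9 were highest in Foxp3-positive Cd4 class cells, followed by Foxp3-positive Cd8 class cells. For Tnfrsf4 the next were Cd4-identity Tdp (308 CPM) and Foxp3-zero Cd4 class cells (257 CPM), whose intervals overlap. For Tnfrsf9 the lowest were Cd8-identity Tdp (70.2 CPM) and Foxp3-zero Cd8 class cells (59.4 CPM), whose intervals overlap. Cd40lg was highest in Foxp3-zero Cd4 class cells (222 CPM), followed by Cd4-identity Tdp (107 CPM), and the other 4 groups, from 27.0 to 38.5 CPM, had overlapping intervals. For Cd27, Foxp3-positive Cd4 class (177 CPM), Foxp3-zero Cd8 class (169 CPM), Cd8-identity Tdp (169 CPM) and Cd4-identity Tdp (147 CPM) overlapped in their intervals. Foxp3-positive Cd8 class cells came next (116 CPM), and Foxp3-zero Cd4 class cells (49.6 CPM) were lowest. Cd28 varied least among the frequent genes, from 116 CPM in Foxp3-positive Cd8 class cells to 224 CPM in Cd4-identity Tdp cells.

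Within single cells Tnfrsf4, Tnfrsf9 and Tnfrsf18 were seen together more often than their separate frequencies give, while Tnfrsf4 and Tnfrsf9 were not so with Cd28. The 9 genes make 36 pairs, and all were counted in cells thinned to 2000 UMIs. In 1758 Foxp3-zero Cd4 class cells Tnfrsf4 and Tnfrsf9 were both seen in 4.95% [3.98 to 6.07], against a product of their shares of 2.01%. Tnfrsf9 was seen in 19.9% of the cells with Tnfrsf4 and 4.16% of those without. Tnfrsf9 with Tnfrsf18 reached 1.85 times the product and Tnfrsf4 with Tnfrsf18 reached 1.47 times, while Tnfrsf9 with Cd40lg reached 0.63 times. In 484 Foxp3-positive cells, where the receptors are in most cells, Tnfrsf4 and Tnfrsf9 were both seen in 55.8% [51.2 to 60.3] against a product of 51.2%. In 2500 Cd8 class cells Tnfrsf4 and Tnfrsf9 reached 4.38 times the product on 37 cells, and Tnfrsf4 and Cd40lg 3.13 times on 17 cells. Unlike the Cd4 class, the Cd8 class was not split by Foxp3 status here. Its Foxp3-positive cells held 3.65% of all its UMIs, but 33.0% of its Tnfrsf4 and 26.0% of its Tnfrsf9 UMIs. The part of this mixture in the Cd8 class ratios was not tested. Tnfrsf4 with Cd28 was at 0.916, 0.960 and 0.968 times the product in Foxp3-positive Cd4 class, Foxp3-zero Cd4 class and Cd8 class cells, and Tnfrsf9 with Cd28 at 0.918, 0.904 and 0.890 times. Icos and Cd28 were both seen in 14.6% [13.0 to 16.4] of Foxp3-zero Cd4 class cells, against a product of 12.8%, and in 6.80% [5.84 to 7.86] of Cd8 class cells, against 5.24%. In Foxp3-positive cells this pair was at 0.976 times the product, and Icos with Cd27 was at 1.00, 0.946 and 1.11 times in the 3 groups. At this depth a median of 4 of the 9 genes was seen in a Foxp3-positive Cd4 class cell and 2 in a Foxp3-zero one. At least 5 were seen in 21.3% of Foxp3-positive and 2.96% of Foxp3-zero cells, and none in 1.24% and 13.3%. In the Cd8 class none was seen in 28.6% of cells.

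**Figure D5:**
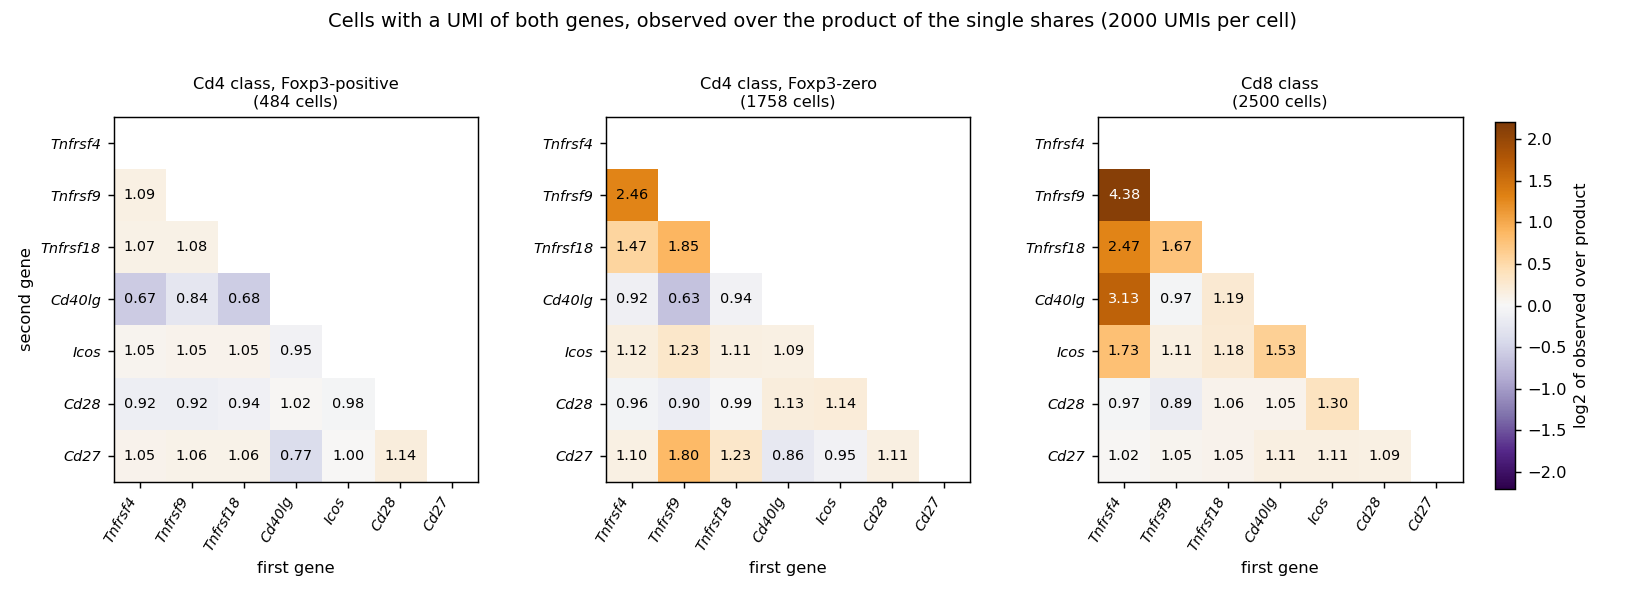
Share of thinned cells with UMIs of both genes of a pair, divided by the product of the 2 shares, for 7 genes in Foxp3-positive Cd4 class, Foxp3-zero Cd4 class and Cd8 class cells. Tnfrsf4 with Tnfrsf9 stands at 1.09, 2.46 and 4.38 in the 3 groups, of which the Cd8 class is not split by Foxp3 status.

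The genes most like each of the 9 were sought over 20 groups of class, Foxp3 status and hashtag number. The groups come from 1 library and differ in depth and cell number, so the correlations are descriptions. Because the groups are split by class and Foxp3 status, genes that differ with either are alike partly by construction. Tnfrsf9 was most like Il2ra (Pearson r = 0.978), Ncmap (0.969) and Tnfrsf18 (0.967). Tnfrsf4 was most like Odc1 (0.951), Hif1a (0.935) and Izumo1r (0.927), and Tnfrsf18 like Tnfrsf9, Ddit4 and Hif1a (0.967, 0.967 and 0.966). Icos was most like Ddit4 (0.960), Igtp (0.953) and Cyb5a (0.947). Cd40lg stood apart, with Il17re (0.900), Krt83 (0.859) and Actn2 (0.830) nearest. Cd28 was most like Gabarapl2, Lypla2 and Bcl11b (0.901, 0.891 and 0.890). Cd27 was most like Tapbpl (0.868), whose annotated end lies 759 bases from Cd27 with no gene between them, then Gm30211 (0.857) and Nrn1 (0.784). For Tnfsf8 the nearest were Trub1, Mthfd2 and Fpgs (0.897, 0.874 and 0.865), and for Cd70 Socs4, Abcb8 and Cluh (0.796, 0.752 and 0.746), on few UMIs.

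Antibody counts gave a separate but sparse readout for 5 of these proteins. The table holds 4315 counts for 138 antibodies, 0.776 per cell, so most cells have none for a given antibody. The GITR antibody had 26 counts in Foxp3-positive and 24 in Foxp3-zero Cd4 class cells, 4.68 and 1.25 per 100 cells, a ratio of 3.75 [2.07 to 6.83]. All antibodies together had 1.01 counts per Foxp3-positive and 0.741 per Foxp3-zero cell. The GITR antibody had 1.25 counts per 100 Foxp3-zero Cd4 class cells and 0.261 per 100 Cd8 class cells, a ratio of 4.78 [2.00 to 13.1]. The OX-40 antibody had 10 and 14 counts in Foxp3-positive and Foxp3-zero cells, a ratio of 2.47 [0.983 to 5.99], and the ICOS antibody had 10 and 36 counts, a ratio of 0.962 [0.426 to 1.98]. For CD137 (1 and 6 counts) and CD27 (2 and 7 counts) no difference could be seen at this depth. Over all cells, Tnfrsf18 had 706 CPM [631 to 789] in the 64 cells with a GITR count and 289 CPM [282 to 295] in the others. Tnfrsf4 had 490 CPM [411 to 580] in the 42 cells with an OX-40 count and 268 CPM [261 to 274] in the others, while Tnfrsf9 had 194 CPM in the 20 cells with a CD137 count and 193 CPM in the others.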

How the data were processed

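The deposited gene table holds raw counts, which the authors made as UMIs per gene and cell, and a deposited antibody table holds raw counts per antibody and cell. Per the submitters' processing notes, the mm10 build, Seurat 3.2.3 and Cell Ranger 3.1.0 were used, without a stated role. Read counting by strand, cell filters, doublet removal and the calling of classes and hashtag numbers are not given in the sources used here. The labels state about 6200 cells loaded. The hashtag and T cell receptor libraries were not analysed here.

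Counts were summed per group with python 3.11.15, numpy 2.4.6 and scipy 1.17.1. The CPM total leaves out 117 antigen receptor genes with 0.325% of the UMIs. A pseudocount of 5 CPM enters log2 ratios but not folds. At the 95% level, levels have exact Poisson intervals, folds have exact intervals of the binomial split of UMIs between groups, and shares have Clopper-Pearson intervals. Shares were also taken in 5140 cells thinned to 2000 UMIs, leaving out shallower cells. UMIs of 1 cell are not independent of its state, so intervals understate the spread.

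A cell was called cycling with at least 5 UMIs of a 14-gene list, a cutoff near which many cells lie (510 cells have 4 UMIs and 274 have 5). Other-marker cells (1505) have at least 2 UMIs of a macrophage, dendritic, B, NK or melanoma list, and 668 cells have at least 2 UMIs of each of 2 Trbv genes. No cells were removed as doublets in the values given first. The 75 macrophage-marker cells, the CD3 and the Cd8a or Cd8b1 alternatives were chosen after seeing the data.

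Alternatives were other pseudocounts, UMI minimums, TMM scaling (edgeR 4.0.16), per-cell means, thinning, standardising, and leaving out cell groups or hashtag numbers. The steps were tested on simulated data. The 9 genes and the lists were chosen with earlier results of these data known. Named genes are the 9, list genes past the fold with the extremes of each list, and the 3 most alike by Pearson r.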

Additional observations from a re-analysis of the deposited data

How the results depend on the processing

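No paired analysis was possible because there is 1 library, with no replicates and no replicate numbers. Of 979 values of the 9 genes under an alternative, 800 moved by less than their interval, 177 by more, and 2 changed sign after being past the fold. Those were Tnfrsf9 in Cd4-identity Tdp against the Cd4 class without cells with a Foxp3 UMI (log2 ratio 0.21), and Cd70 in Foxp3-positive against Foxp3-zero Cd8 class cells without cells with UMIs of 2 Trbv genes (-0.39). The cause of these changes was not tested. In Foxp3-positive against Foxp3-zero Cd4 class cells, the 7 genes past the fold were past it under all 19 alternatives. In Cd4-identity Tdp against the Cd4 class, 5 of the 9 genes were past the fold, but 3 without other-marker cells, 3 without Foxp3 cells, 3 without hashtag number 1, 3 without number 2, and 1 when the Cd4 class was standardised to the hashtag numbers and depths of the Tdp cells. For Cd8-identity Tdp and the Cd8 class the count was 1, but 0 with a pseudocount of 20 CPM, 2 with 1 CPM, thinning, TMM, cells with a CD3 UMI, or without Foxp3 cells, number 1 or number 4, and 3 without cycling, other-marker or 2-Trbv cells. The number of genes past the fold depended on the pseudocount by its construction. With 1 and 20 CPM it was 2255 and 523 in Foxp3-positive against Foxp3-zero Cd4 class cells (1340 with 5 CPM), 2490 and 209 in Cd4-identity Tdp against Cd4 (1423), 1421 and 121 in Cd8-identity Tdp against Cd8 (549), and 1620 and 322 in Cd4 against Cd8 (798). With 20 CPM it was 349 between the Tdp classes (1119) and 849 in the Foxp3 comparison of the Cd8 class (2556). Thinning gave 2862 in Cd4-identity Tdp against Cd4, 1131 in Cd8-identity Tdp against Cd8 and 4041 in the Foxp3 comparison of the Cd8 class. Leaving out cycling cells gave 2850 and 1154 in the comparisons of Cd4-identity and Cd8-identity Tdp with their classes, and leaving out 2-Trbv cells gave 2659 and 839. Leaving out other-marker cells gave 2035 and 4190 in the Foxp3 comparisons of the Cd4 and the Cd8 class, and leaving out number 2 gave 2149 in Cd4-identity Tdp against Cd4. A minimum of 100 UMIs gave 805 in that comparison and 220 between the Tdp classes, where a minimum of 1 UMI gave 1980. Means of per-cell CPM gave 1713 between the Tdp classes and 3895 in the Foxp3 comparison of the Cd8 class. Cells with a CD3 UMI gave 268 in Cd8-identity Tdp against Cd8. Depth limits Cd70 and Tnfsf8 most, with 3 to 140 and 2 to 305 UMIs per group.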

Other observations

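Among Foxp3-zero cells several of the 9 genes also differed with Pdcd1, the inhibitory receptor PD-1 of activated and exhausted T cells. In the Cd4 class the 408 cells with a Pdcd1 UMI had 377 CPM of Tnfrsf4 and 176 CPM of Tnfrsf9, against 208 CPM and 79.6 CPM in the 1514 cells without. Cd70 had 21.1 CPM with and 2.55 CPM without a Pdcd1 UMI, while Icos had 236 CPM against 229 CPM and Cd40lg 194 CPM against 234 CPM. The Cd70 levels rest on 66 UMIs in all Foxp3-zero Cd4 class cells. In the whole Cd4 class 25 cells held 74% of the Cd70 UMIs. In the Cd8 class the 1164 cells with a Pdcd1 UMI had 81.2 CPM of Tnfrsf9, 125 CPM of Icos, 192 CPM of Cd28 and 198 CPM of Cd27, against 40.0, 81.5, 136 and 143 CPM in the 1439 cells without. Median depth was 4480.5 UMIs with and 3407 UMIs without a Pdcd1 UMI in the Cd4 class, and 4310.0 against 4026 UMIs in the Cd8 class, and the part of depth in these differences was not tested. In the Cd8 class markers of other cell types also moved with Pdcd1, and their part was not tested either. The macrophage list (9 of 9 genes in the table, none at 0) had 182 CPM with and 1590 CPM without a Pdcd1 UMI, the NK cell list 84.9 CPM and 574 CPM, and the T cell list 4808 CPM and 3765 CPM. A CD3 UMI was present in 99.2% of Cd8 class cells with and 89.7% of those without a Pdcd1 UMI, and 40.1% and 26.8% were cycling. In the Cd4 class 38.5% of cells with and 21.3% of those without a Pdcd1 UMI were cycling.

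Tnfsf8 had 10.5 CPM in cycling Foxp3-zero Cd8 class cells, against 33.6 CPM in those not cycling.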
